A study of Arabidopsis thaliana with 6 samples.

Results

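Transcripts of the genes that make enzymes and inhibitors acting on pectin were compared between green and non-green seeds of Arabidopsis thaliana. The genes were those whose short description in the deposited table contains "pectin" or "pectate", which gave 245 of 32678 gene models. Both kinds of seed segregate within the same siliques of a chlorophyll synthase mutant line. The green seeds are labelled with the genotype Atchlsyn1-1/CHLSYN and the non-green, yellow seeds with Atchlsyn1-1. By these labels both carry the mutant allele and the difference is the CHLSYN allele. The titles of the non-green libraries also hold the word photosynthetic, while the design text calls these seeds non-competent for photosynthesis. There were 3 libraries per group, made from Trizol-extracted total RNA of whole seeds from plants grown at 22 °C in long days. Seed age, plants per library and the kind of mutation were not given in the sources used here. No label states that the libraries came from separate plants, so the p-values cover the spread among these libraries alone, and that spread may be technical.

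Pectin is the gel-forming polysaccharide of the plant primary wall, and most of it is homogalacturonan, a chain of galacturonic acid that is exported with methyl groups attached. Pectin methylesterases remove those groups in the wall, inhibitor proteins bind and block the methylesterases, acetylesterases remove acetyl groups, and polygalacturonases and pectate lyases cut the chain. In Arabidopsis seeds the seed coat epidermis also secretes a pectic mucilage, whose swelling depends on how far the pectin is methylated.

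The libraries held 16438639 to 16745514 counts each, and transcripts of chlorophyll synthase (CHLG, AT3G51820) were fewer in the non-green libraries, in the direction of the labels (11, 6 and 9 counts against 46, 50 and 65 in green, log2 fold change -2.69 ± 0.36 SE, n = 3 libraries each, edgeR adjusted p = 1.32e-09). As a check of the labelled tissue, 7 embryo genes were read, for storage proteins, oleosins and the late embryogenesis abundant protein EM1. Together they held 350431 to 364256 CPM (counts per 1e6 counts of the library after scaling) in green and 310860 to 323119 in non-green libraries. Of these 7 genes, 1 was called higher and 4 lower, beside 14.2% and 12.5% of all genes tested. In whole seeds, fewer cells of a type and less RNA per cell cannot be told apart.

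The description sorts the 245 genes into 111 of the inhibitor class, 110 that are lyase-like, 11 methylesterases and 13 others, of which 12 are pectin acetylesterases. The class names were checked against the protein domains listed in the deposited table. For part of the inhibitor class the domains went against the name. There, 34 of the 111 genes carry the catalytic domain of a pectin methylesterase next to an inhibitor domain, 76 carry an inhibitor domain alone and 1 (AT1G56100) has neither listed. In the methylesterase class, 8 of the 11 genes also carry both the esterase and the inhibitor domain, and 3 the esterase domain alone. The lyase-like class is likewise mixed. It holds 64 genes with the glycosidase family 28 domain of polygalacturonases, 25 with a pectate lyase domain, 19 with a methylesterase domain and 2 with the fold alone. Counted by domain, 64 of all genes carry the methylesterase domain. The groups below are therefore given both by description and by domain.

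Most of these genes had few or no counts in the seeds. No count was found in any library for 86, another 75 had counts too low to test (at most 21 in 1 library), and 84 entered the test among 17239 genes. Of the 84, 73 passed the filter on low counts in both groups. By mean RPKM, the level per length of transcript, 3 of the 245 lay at 100 or more, 14 between 10 and 100, 49 between 1 and 10, and 93 above 0 and under 1. Among the 75 genes with counts that were too low to test, 11 have pollen or male gametophyte in the annotated place of expression. So do 3 of the 86 without counts, 1 of the 17 called higher, none of the 16 called lower and none of the 51 tested and not called.

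The most abundant was AT3G60730, a protein with both esterase and inhibitor domains. Its levels per library were 795, 791 and 786 CPM in green and 753, 724 and 760 in non-green seeds, and its mean RPKM was 460 in green and 457 in non-green. It alone held 38.5% ± 0.224 (SD, n = 3) of the summed CPM of all 245 genes in green and 37.8% ± 0.570 in non-green seeds. The next levels were AT5G51490 at 110 and 113 RPKM and AT1G23200 at 120 and 104 RPKM in green and non-green seeds, both again with esterase and inhibitor domains. Together these 3 genes held 59.5% ± 0.424 of the summed CPM in green and 57.3% ± 0.419 in non-green seeds.

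Promoter windows are shown for those that carry the result: the most abundant gene (AT3G60730), the abundant gene that fell (AT1G23200), the gene with the largest rise among those at an average of 1 CPM or more (PME44) and the gene with the largest fall (AT2G43880). Each runs from 250 bases before to 50 bases after the annotated start, from RefSeq in build TAIR10.1, 5′ to 3′ on the strand of the gene. The positions are chr3:22444640-22444939, chr1:8226883-8227182, chr4:16022019-16022318 and chr2:18172639-18172938, all on the plus strand. Capitals mark matches, on either strand, to the G-box CACGTG, the W-box TTGACC or TTGACT, the L1 box TAAATGCA or TAAATGTA and the RY element CATGCA. An L1 box can overlap an RY element by the letters TGCA.
AT3G60730: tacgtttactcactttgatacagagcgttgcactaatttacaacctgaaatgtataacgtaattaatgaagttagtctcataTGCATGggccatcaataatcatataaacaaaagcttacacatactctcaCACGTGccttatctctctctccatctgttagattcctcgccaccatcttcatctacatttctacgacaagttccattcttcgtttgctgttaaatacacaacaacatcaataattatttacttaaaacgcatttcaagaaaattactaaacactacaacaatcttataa
AT1G23200: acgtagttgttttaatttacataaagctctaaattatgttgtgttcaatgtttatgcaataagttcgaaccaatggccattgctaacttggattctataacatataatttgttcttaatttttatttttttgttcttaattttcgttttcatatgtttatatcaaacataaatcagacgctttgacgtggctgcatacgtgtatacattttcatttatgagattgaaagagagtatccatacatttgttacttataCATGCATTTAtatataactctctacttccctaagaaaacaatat
PME44: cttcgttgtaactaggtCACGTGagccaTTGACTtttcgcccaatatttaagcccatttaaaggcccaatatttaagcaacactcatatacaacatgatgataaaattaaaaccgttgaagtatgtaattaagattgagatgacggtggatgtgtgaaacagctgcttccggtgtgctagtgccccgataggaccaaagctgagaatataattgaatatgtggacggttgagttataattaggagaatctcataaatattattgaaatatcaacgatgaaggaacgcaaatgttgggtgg
AT2G43880: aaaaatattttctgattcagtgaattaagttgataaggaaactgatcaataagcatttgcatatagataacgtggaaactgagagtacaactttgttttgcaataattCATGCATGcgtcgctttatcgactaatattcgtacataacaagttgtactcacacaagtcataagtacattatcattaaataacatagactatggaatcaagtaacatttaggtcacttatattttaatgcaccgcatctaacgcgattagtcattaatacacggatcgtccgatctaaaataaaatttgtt
The window of AT3G60730 holds 1 G-box and 1 RY element, that of AT1G23200 an RY element that overlaps an L1 box, that of PME44 1 G-box and 1 W-box, and that of AT2G43880 a pair of overlapping RY elements. Among windows of the same length at 27443 coding genes, 7.68% hold a G-box, 32.4% a W-box, 5.10% an L1 box and 9.72% an RY element. Among the 245 pectin genes the shares are 4.08%, 29.8%, 6.53% and 15.1%. Among the 17 that rose and the 16 that fell, an RY element occurs in 2 and 2, an L1 box in 1 and 2, a G-box in 1 and 1, and a W-box in 3 and 2.

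Of the 84 tested genes, 33 passed a Benjamini-Hochberg adjusted p of 0.05 in edgeR's two-sided quasi-likelihood test over all genes, which is 39.3%, beside 26.6% of all genes tested. In non-green seeds 17 were higher and 16 lower, where 14.2% of all genes were called higher and 12.5% lower. The median log2 fold change, non-green minus green, was 0.01 over the 84 and 0.00 over all genes tested. With libraries scaled by their totals alone, which shifts every log2 fold change up by 0.07, the split was 20 higher and 13 lower, where 18.9% and 7.91% of all genes were called, and together 26.9%. DESeq2 called 31 of the 84 and 21.3% of all genes, and edgeR with the replicate block 32 and 26.9%. Without the filter edgeR tested all genes with a count, which are the 245 less the 86 without any. It called 37 of these, and 20% of 22695 genes over the whole table. Of the genes called by the main test, 14 rose and 7 fell by at least 1.5-fold, against 5.49% and 2.63% of all genes tested, and 8 rose by at least 2-fold, VGD1 (AT2G47040) included, while 1 fell by as much, against 2.4% and 0.568%. All 33 had groups that did not overlap in CPM. That share was not counted over all genes called, so it says nothing particular about the pectin genes.

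**Figure D1:**
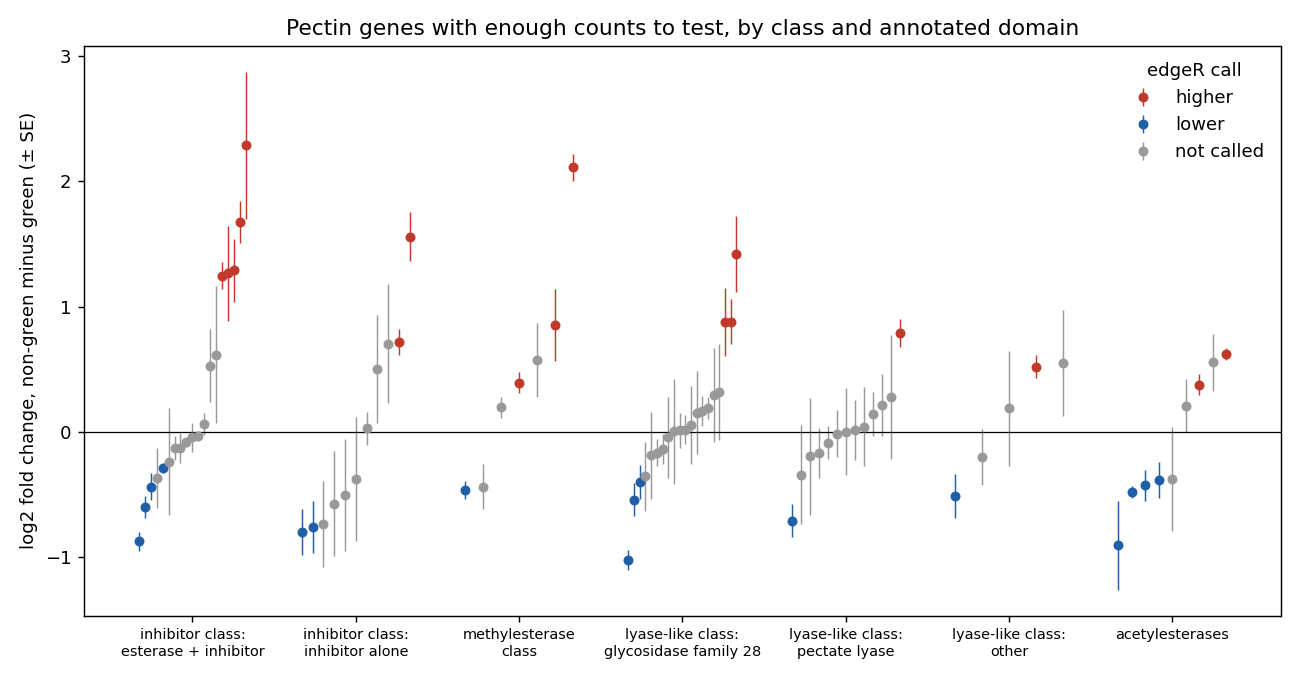
Each point is a tested pectin gene, placed by class and annotated domain, and the y axis is its log2 fold change, non-green minus green, with bars of 1 SE (3 libraries per group). Red and blue points were called higher and lower by edgeR. PME44 lies at 2.11 and the deepest fall, at -1.02, is a gene of glycosidase family 28. The highest point, at 2.29, is VGD1, which passed the filter on low counts only through the non-green libraries and moved between 1.73 and 3.90 when single libraries were left out.

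**Figure D2:**
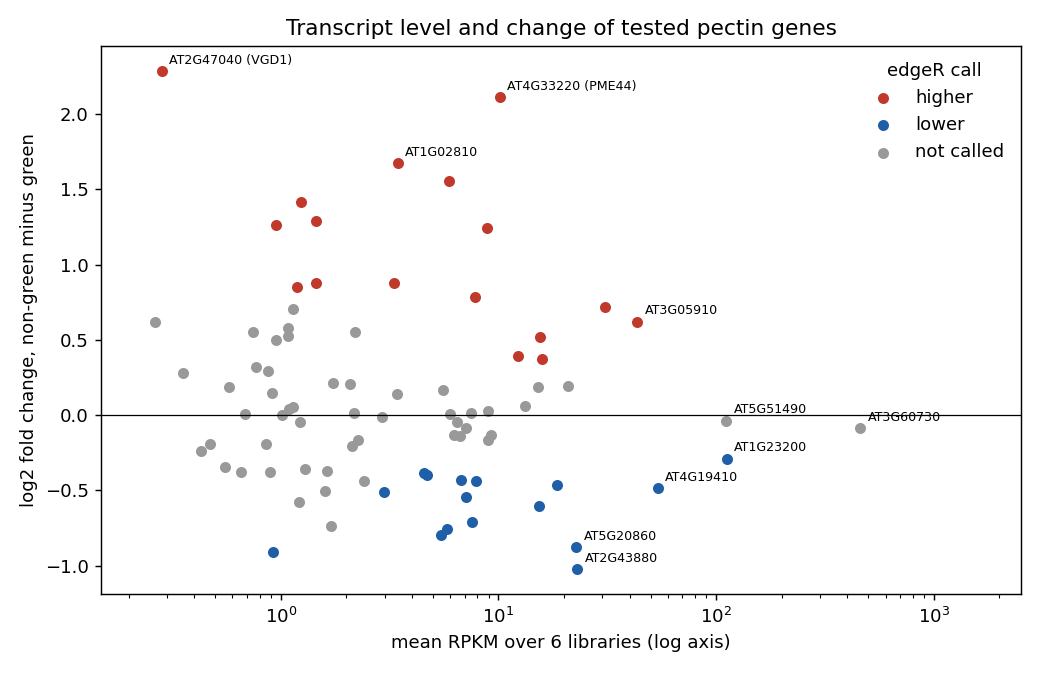
The x axis is the mean RPKM over 6 libraries on a log axis and the y axis the log2 fold change, non-green minus green, of each tested pectin gene. Of the genes at 10 RPKM or more, 6 were called higher, 6 lower and 5 neither. Over all genes tested, at any level, 26.6% were called, and the share at this level was not counted. The 3 pectin genes at 100 RPKM or more lie between -0.29 and -0.04.

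In the methylesterase class, 3 of the 7 tested genes rose in non-green seeds and 1 fell, with a median log2 fold change of 0.39. Over all genes tested, 14.2% rose and 12.5% fell. The summed level of the class was 103 ± 1.22 CPM (SD, n = 3) in green and 126 ± 2.40 in non-green seeds. The rise of PME44 alone was about as large in CPM as that of the sum. PME44 (AT4G33220) had 115, 129 and 98 counts in green and 498, 591 and 475 in non-green libraries. Its lowest non-green library thus lay far above its highest green one. The mean was 4.32-fold higher in non-green seeds, from 7.06 ± 1.05 to 30.5 ± 3.47 CPM, and the log2 fold change was 2.11 ± 0.11 (SE, edgeR adjusted p = 7.49e-30). It spans 16022269 to 16026428 of chromosome 4 in TAIR10.1, plus strand, with 5 annotated exons, and its end overlaps AT4G33230 on the other strand. AT4G33230 is itself of the inhibitor class and had no count in any library.

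PME1 (AT1G53840) had 350, 362 and 351 counts in green and 509, 491 and 475 in non-green libraries (log2 fold change 0.39 ± 0.08, edgeR adjusted p = 7.51e-05). Its neighbour PME2 (AT1G53830), 320 bases upstream on the same strand, rose by 0.85 ± 0.29 (edgeR adjusted p = 0.0184), from 29, 25 and 25 to 52, 63 and 36 counts. That call for PME2 was lost without green replicate 3 (adjusted p = 0.0567) and without non-green replicate 1 (0.0539) or 2 (0.155). Neighbouring copies can exchange reads, and the handling of reads with several matches was not given in the sources used here.

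The fall in this class was PME61 (AT3G59010), which the deposited annotation also calls PME35 and ties to the mechanical strength of supporting tissue. Its counts were 672, 665 and 665 in green and 564, 446 and 525 in non-green libraries, from 41.3 ± 0.541 to 29.9 ± 3.44 CPM (log2 fold change -0.46 ± 0.07, edgeR adjusted p = 1.67e-07). Per length of transcript, the order in green seeds was PME61 (21.0 ± 0.317 RPKM, SD), PME31 (18.8 ± 1.54), PME1 (10.4 ± 0.180) and PME44 (3.66 ± 0.506). In non-green seeds PME31 (22.7 ± 1.72 RPKM) was followed by PME44 (16.7 ± 1.99), PME61 (16.0 ± 1.84) and PME1 (14.3 ± 0.444), so PME44 moved from the fourth place to a level that differed from PME61 by less than the spread between libraries. PME31 (AT3G29090) was not called (log2 fold change 0.20 ± 0.08, edgeR adjusted p = 0.0774). It was called with library totals alone (adjusted p = 0.012), without green replicate 3 (0.0367) and without non-green replicate 1 (0.0439).

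**Figure D3:**
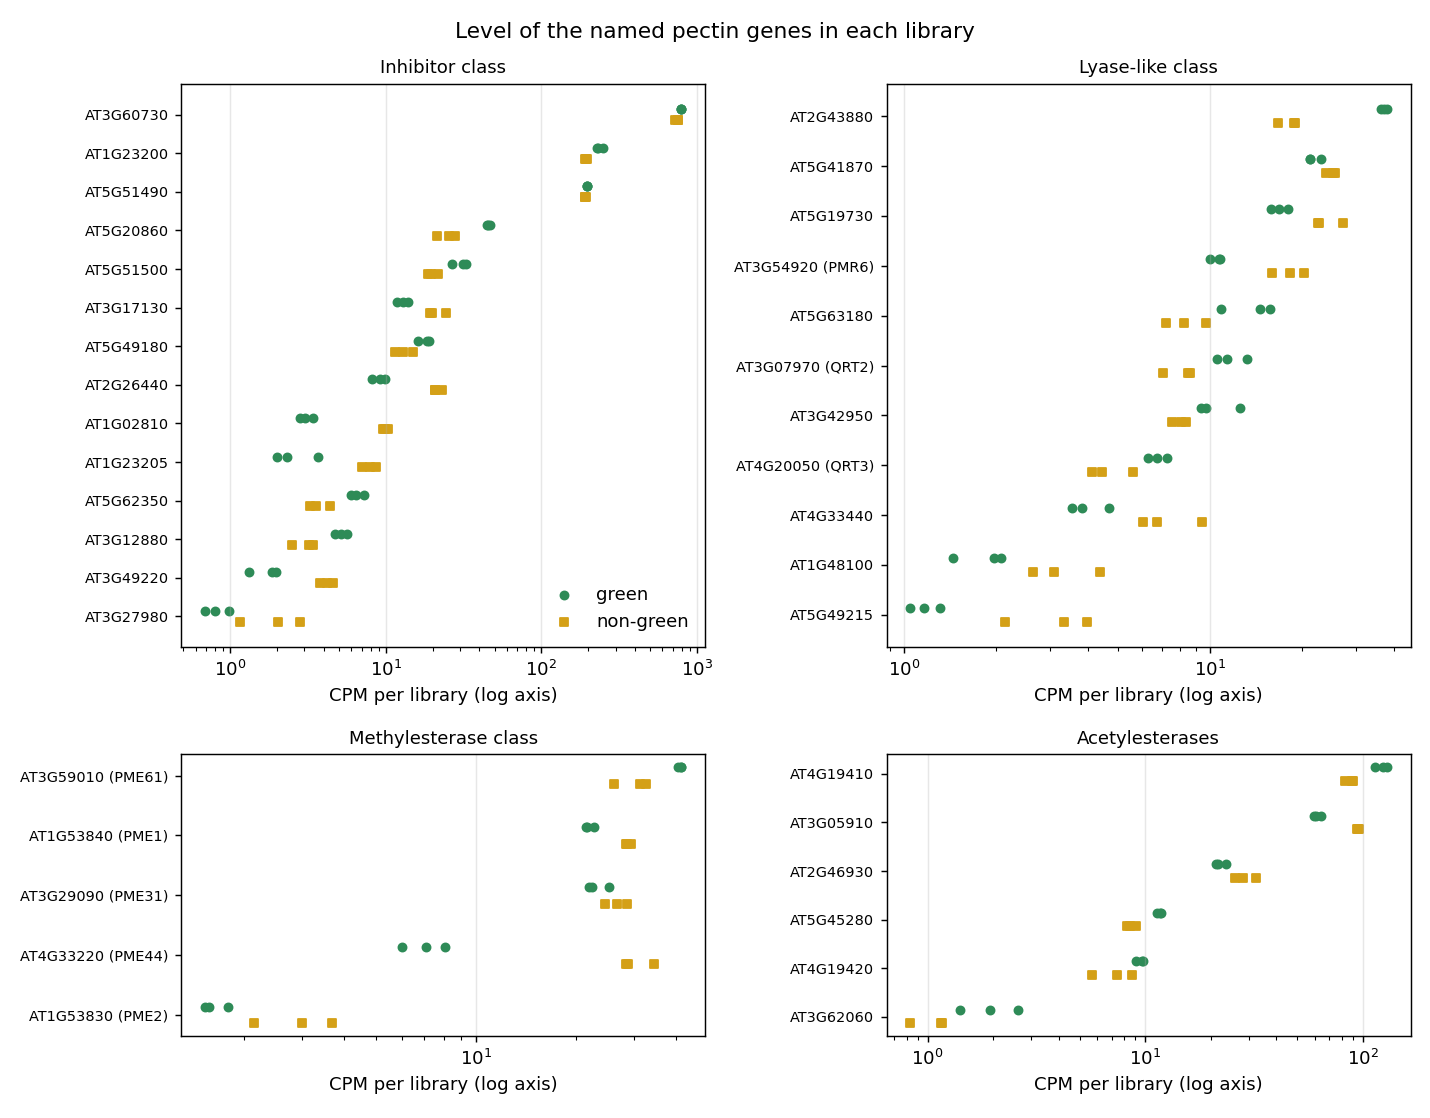
Each point is 1 library, with green seeds as circles and non-green seeds as squares, and the x axis is CPM on a log axis that differs between panels. The panels hold the named genes of the inhibitor, lyase-like and methylesterase classes and the acetylesterases, ordered by level. PME44 moves from 7.06 to 30.5 CPM on average, while AT3G60730 stays between 724 and 795 CPM in all 6 libraries.

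By description, 30 genes of the inhibitor class were tested. Of these, 7 rose, VGD1 included, and 6 fell, which is 43.3% beside 26.6% of all genes tested, with a median of -0.06. The summed level of the class was 1456 ± 18.5 CPM (SD, n = 3) in green and 1359 ± 24.1 in non-green seeds. Inhibitor-class genes that carry an esterase domain moved in both directions. Of 19 tested, 5 rose and 4 fell, which is 47.4% beside 26.6% of all genes tested, with a median of -0.05. The 5 rises count VGD1, described below, which passed the filter on low counts only through the group where it is high. AT1G02810 had 49, 45 and 56 counts in green and 171, 176 and 160 in non-green libraries. Its mean was 3.20-fold higher in non-green seeds, from 3.09 ± 0.307 to 9.88 ± 0.371 CPM (log2 fold change 1.67 ± 0.17, edgeR adjusted p = 4.77e-14). The gene lies on chromosome 1 at 618061 to 620502, plus strand. AT2G26440, which the RefSeq table calls PME12, had 161, 146 and 134 counts in green and 362, 356 and 387 in non-green libraries, a 2.37-fold rise (log2 fold change 1.24 ± 0.11, edgeR adjusted p = 7.25e-17). In neither gene did a non-green library come near the green range. AT3G49220 rose from 30, 21 and 32 to 73, 65 and 77 counts (1.29 ± 0.25, edgeR adjusted p = 2.19e-05).

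AT3G27980 rose from 13, 11 and 16 to 20, 48 and 34 counts (1.27 ± 0.38, edgeR adjusted p = 0.00694), and the call was lost without non-green replicate 2 (adjusted p = 0.13). It overlaps AT3G27990 on the other strand, and reads of such pairs cannot be told apart without strand. The remaining rise was VGD1 (AT2G47040), a methylesterase that speeds pollen tube growth and is annotated as specific to pollen. It lies below the 1 CPM average used for naming genes and was picked out after its values were seen. Its counts were 2, 0 and 8 in green and 18, 15 and 20 in non-green libraries (log2 fold change 2.29 ± 0.59, edgeR adjusted p = 0.0014). The value was 3.90 without green replicate 3, which holds the 8 counts, and 1.73 without green replicate 2. VGD1 passed the filter on low counts only through the non-green libraries. Of 9 genes listed as pollen markers, 4 were tested and 1 was called, beside 26.6% of all genes tested. That gene, SPIK, fell by 0.84 ± 0.28 on the log2 scale (edgeR adjusted p = 0.0196). Its call was lost when green replicate 1 or non-green replicate 3 was left out. The 3 tested pollen markers that were not called leaned up, LRX8 by 0.50, LRX9 by 0.48 and ANX1 by 0.16. The median of the 4 was 0.32. The summed level of the 9 pollen markers was 8.52 to 10.02 CPM in green and 8.81 to 11.3 in non-green libraries, with ANX2 at 0 in all. The part of pollen RNA in the VGD1 result was not tested.

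Among the falls with an esterase domain, AT5G20860 was the deepest. It had 735, 745 and 736 counts in green and 371, 479 and 427 in non-green libraries, from 45.7 ± 0.878 to 24.9 ± 3.32 CPM (log2 fold change -0.87 ± 0.07, edgeR adjusted p = 2.48e-17). The gene lies on chromosome 5 at 7076735 to 7079149, minus strand. AT1G23200, shown above by its promoter, had 4019, 3670 and 3728 counts in green and 3400, 3249 and 3236 in non-green libraries. This is a small fall on a high level, from 235 ± 11.2 to 193 ± 3.17 CPM (-0.29 ± 0.04, edgeR adjusted p = 8.02e-09). AT5G49180, annotated as a putative methylesterase of floral buds, fell by 0.44 ± 0.11 on the log2 scale (edgeR adjusted p = 0.000719), with 305, 258 and 300 counts in green and 225, 195 and 252 in non-green libraries.

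AT5G51490 and AT5G51500 lie 1915 bases apart on chromosome 5. AT5G51500 fell by 0.60 ± 0.09 on the log2 scale (edgeR adjusted p = 1.50e-08), from 531, 497 and 435 to 322, 334 and 363 counts. Its more abundant neighbour AT5G51490 had 3180, 3138 and 3197 counts in green and 3292, 3308 and 3206 in non-green libraries (log2 fold change -0.04 ± 0.04, edgeR adjusted p = 0.564). AT3G60730, the most abundant gene, was not called (log2 fold change -0.08 ± 0.03, edgeR adjusted p = 0.0576), although its 3 non-green libraries all lay below its green ones in CPM. DESeq2 called it (adjusted p = 0.0131), as did edgeR without non-green replicate 3 (adjusted p = 0.0445). By summed level, the 64 genes with an esterase domain went from 1531 ± 19.7 CPM (SD, n = 3) in green to 1456 ± 21.2 in non-green seeds. Of the 29 tested among them, 9 were called higher and 5 lower, VGD1 included, which is 48.3% beside 26.6% of all genes tested, with a median of 0.19.

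Of 76 inhibitors without an esterase domain, 11 were tested, 2 rose and 2 fell, which is 36.4% beside 26.6% of all genes tested, with a median of -0.38. Their summed level was 46.6 ± 1.60 CPM in green and 56.0 ± 3.08 in non-green seeds. Without AT3G17130 it was 33.8 ± 2.02 CPM in green and 35.0 ± 0.726 in non-green seeds. AT1G23205 had 59, 32 and 38 counts in green and 149, 121 and 132 in non-green libraries, 2.95-fold higher on average (log2 fold change 1.56 ± 0.19, edgeR adjusted p = 1.84e-10). It lies on chromosome 1 at 8233953 to 8235019, minus strand, 4291 bases from AT1G23200, which fell. AT3G17130 was the most abundant of this group, with 22.6 RPKM in green and 39.1 in non-green seeds. Its counts were 190, 222 and 210 against 332, 340 and 407 (0.72 ± 0.10, edgeR adjusted p = 2.02e-08).

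AT5G62350 fell from 117, 102 and 97 to 62, 75 and 55 counts (log2 fold change -0.80 ± 0.18, edgeR adjusted p = 0.000341). AT3G12880 fell from 76, 82 and 92 to 56, 58 and 42 counts (-0.76 ± 0.21, edgeR adjusted p = 0.00269). PMEI6 (AT2G47670), an inhibitor known for its action in seed coat mucilage, had 16, 18 and 24 counts in green and 13, 19 and 9 in non-green libraries. Its groups overlapped and it was not called (-0.58 ± 0.42, edgeR adjusted p = 0.347). The 7 tested genes of this group that were not called ran from -0.74 to 0.70.

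Of 38 tested lyase-like genes, 5 rose and 5 fell, which is 26.3% beside 26.6% of all genes tested, a share near the background, and the median was 0.01. Their summed level was 257 ± 4.36 CPM in green and 248 ± 2.46 in non-green seeds. Of the 20 tested genes with the glycosidase family 28 domain, 3 rose and 3 fell, which is 30% beside the same 26.6%. AT2G43880, annotated with polygalacturonase activity, had the deepest fall of all 84. It lies on chromosome 2 at 18172889 to 18174705, plus strand, with 4 annotated exons. Its levels were 37.0, 37.8 and 36.1 CPM in green and 16.7, 18.9 and 18.9 in non-green libraries, a clear separation (log2 fold change -1.02 ± 0.08, edgeR adjusted p = 6.91e-19).

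QRT2 (AT3G07970), a polygalacturonase needed for the separation of pollen tetrads, fell from 184, 169 and 216 to 147, 120 and 145 counts (-0.54 ± 0.13, edgeR adjusted p = 0.000648). AT3G42950 fell by 0.40 ± 0.14 on the log2 scale (edgeR adjusted p = 0.0198), but its value was -0.26 (adjusted p = 0.249) without green replicate 2. The call for AT3G42950 was also lost without non-green replicate 3 (adjusted p = 0.073), with DESeq2 (0.0568) and with totals alone (0.0693). Among the rises, AT4G33440 went from 76, 61 and 58 to 105, 161 and 113 counts (0.88 ± 0.18, edgeR adjusted p = 5.33e-05). AT5G49215 went from 17, 21 and 19 to 69, 57 and 36 counts (1.42 ± 0.30, edgeR adjusted p = 0.000112). AT1G48100 went from 32, 23 and 34 to 46, 75 and 52 counts (0.88 ± 0.27, edgeR adjusted p = 0.00873), and its call was lost without green replicate 2 (0.0557) or non-green replicate 2 (0.134). All 3 rises were of genes at a low level, as the plot of levels by library shows. The other 14 tested genes of family 28 ran from -0.36 to 0.32. They include AT5G41870, abundant for its class at 13.8 RPKM in green and 16.6 in non-green seeds (0.19 ± 0.09, edgeR adjusted p = 0.0926), which was called with totals alone (adjusted p = 0.0154).

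Of 13 tested pectate lyases, 1 was higher and 1 lower, and the 11 that were not called had log2 fold changes of -0.34 to 0.28, while 14.2% of all genes were called higher and 12.5% lower. PMR6 (AT3G54920), a pectate lyase-like protein named for the powdery mildew resistance of its mutant, had 162, 171 and 177 counts in green and 316, 273 and 341 in non-green libraries. The groups were well apart (10.5 ± 0.444 to 18.1 ± 2.19 CPM, log2 fold change 0.79 ± 0.11, edgeR adjusted p = 8.47e-09), and PMR6 overlaps AT3G54910 on the other strand. AT5G63180 fell from 176, 251 and 238 to 143, 166 and 121 counts (-0.71 ± 0.13, edgeR adjusted p = 6.26e-06). Of the lyase-like genes with an esterase domain, AT5G19730 rose from 291, 252 and 275 to 472, 386 and 383 counts (0.52 ± 0.09, edgeR adjusted p = 3.92e-06). QRT3 (AT4G20050), a polygalacturonase that degrades the wall of the pollen mother cell, fell by 0.51 ± 0.17 on the log2 scale (edgeR adjusted p = 0.018), from 117, 100 and 110 to 77, 96 and 69 counts. The call for QRT3 was lost without green replicate 1 (adjusted p = 0.0761) and non-green replicates 1 (0.067) or 3 (0.0964).

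Of 9 tested pectin acetylesterases, 2 were higher and 4 lower in non-green seeds, beside 14.2% and 12.5% of all genes tested. The summed level of the acetylesterases and the 1 silent pectinase was 238 ± 11.5 CPM in green and 238 ± 7.19 in non-green seeds. In green seeds PAE7 (AT4G19410) led, with 1999, 2055 and 1867 counts against 1550, 1543 and 1390 in non-green libraries (from 122 ± 7.40 to 87.4 ± 3.996 CPM, log2 fold change -0.48 ± 0.05, edgeR adjusted p = 2.43e-14). In non-green seeds AT3G05910 led instead, with 991, 1030 and 980 counts in green against 1640, 1642 and 1597 (61.9 ± 2.38 to 95.1 ± 0.654 CPM, 0.62 ± 0.05, edgeR adjusted p = 3.64e-18). Per length of transcript, PAE7 went from 61.5 to 46.4 RPKM and AT3G05910 from 33.1 to 53.6, so the order of the pair reversed on that scale too.

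PAE3 (AT2G46930) rose by 0.38 ± 0.08 on the log2 scale (edgeR adjusted p = 0.000254) and PAE11 (AT5G45280) fell by 0.43 ± 0.13 (edgeR adjusted p = 0.00618). PAE8 (AT4G19420), 1304 bases from PAE7, fell by 0.39 ± 0.14 (edgeR adjusted p = 0.0366). That value was -0.24 (adjusted p = 0.284) without non-green replicate 2, and the call was lost without green replicate 2 (0.084), green replicate 3 (0.0868) or non-green replicate 3 (0.0596), with DESeq2 (0.0942) and with totals alone (0.104). PAE6 (AT3G62060), with 42, 31 and 23 counts in green and 20, 20 and 14 in non-green libraries, fell by 0.91 ± 0.36 (edgeR adjusted p = 0.0479). The call for PAE6 was lost without each library except green replicate 3 (adjusted p = 0.0674 to 0.283), with DESeq2 (0.0825), with totals alone (0.0733) and with the replicate block (0.0531). The other 3 ran from -0.38 to 0.55.

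Some of the genes are neighbours. Of 54 pairs within 5000 bases of each other on a chromosome, 5 had both genes tested and 3 both called. That share was not counted over neighbouring pairs of all genes. PME2 and PME1 both rose, PAE7 and PAE8 both fell, and AT1G23200 and AT1G23205 moved in opposite directions. Of the 33 called genes, 7 overlap another annotated gene, whose reads could be counted for either where strand was not used.

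The authors' deposited table holds a comparison of its own, with an adjusted p for 106 of the genes. Of these, 20 were higher and 16 lower in the authors' deposited table, which called 21.7% of its 18824 genes with an adjusted p. Of the 33 calls above, 31 were also made in the authors' deposited table, all with the same sign. The authors' deposited table called a further 5 genes, AT3G60730, AT2G47050, UNE11 (AT4G00080), AT5G50030 and AT1G56100. The last 4 had too few counts to be tested here. Without the filter on low counts edgeR called these 4 as well, and their counts show how little they rest on. AT2G47050 had 1, 0 and 0 counts in green and 10, 9 and 5 in non-green libraries (adjusted p = 0.00898), and AT5G50030 had none in green and 11, 5 and 7 (adjusted p = 0.00211). UNE11 had 1, 1 and 1 against 4, 9 and 14 (adjusted p = 0.0226), and AT1G56100 had 21, 13 and 10 against 7, 5 and 2 (adjusted p = 0.0281). The first 3 of these are inhibitors without an esterase domain.

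Genes that make and export pectin were read alongside. Of 25 listed for the synthesis of homogalacturonan and other pectins, all tested, 4 rose and 6 fell, which is 40% beside 26.6% of all genes tested, with a median of 0.00. UGD1, a UDP-glucose dehydrogenase that supplies the sugar precursor, fell from 53.9 ± 0.735 to 31.1 ± 2.44 CPM (log2 fold change -0.80 ± 0.07, edgeR adjusted p = 7.11e-18). The other listed dehydrogenases of this kind, UGD2, UGD3 and UGD4, were not called. UGD3 was more abundant than UGD1, at 70.9 ± 1.05 CPM in green and 69.7 ± 3.11 in non-green seeds. AT5G15740, annotated as an O-fucosyltransferase family protein, fell from 455 ± 11.9 to 314 ± 8.73 CPM (-0.53 ± 0.04, edgeR adjusted p = 8.12e-22). GAE1, an epimerase that makes UDP-galacturonic acid, rose from 128 ± 4.81 to 173 ± 5.92 CPM (0.44 ± 0.04, edgeR adjusted p = 1.33e-14). GAE6, also listed, was not called (-0.20 ± 0.09, edgeR adjusted p = 0.0993). AT3G49720 rose from 27.1 ± 2.46 to 43.0 ± 0.382 CPM (0.66 ± 0.07, edgeR adjusted p = 1.21e-12).

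In the list of seed coat mucilage secretion and modification, none of 13 tested genes rose and 5 fell, with a median of -0.26, where 14.2% of all genes were called higher and 12.5% lower. ARA12, a subtilisin-like protease essential for mucilage release, fell from 214 ± 2.15 to 170 ± 8.85 CPM (log2 fold change -0.33 ± 0.04, edgeR adjusted p = 1.66e-10). BXL1, a xylosidase and arabinofuranosidase that trims pectic arabinan, fell by 0.64 ± 0.08 on the log2 scale (edgeR adjusted p = 8.48e-10). FLY1 (AT4G28370), a ubiquitin ligase known to regulate pectin methylation in mucilage, fell by 0.42 ± 0.07 (edgeR adjusted p = 3.00e-07) and CSLA02, a glucomannan synthase, by 0.26 ± 0.06 (edgeR adjusted p = 0.000157).

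Of 18 tested regulators of seed coat mucilage, 10 fell and 1 rose, with a median of -0.37, where 12.5% of all genes were called lower. For this list and the one before it, RNA came from whole seeds that grew in the same siliques. The tissue that carries the changes, and the part of the labelled genotype there, were not tested. GL2, a homeodomain factor required for mucilage, fell from 97.1 ± 3.41 to 52.4 ± 2.34 CPM (-0.89 ± 0.05, edgeR adjusted p = 5.46e-26). The MADS factors STK and SEP3 fell by 0.58 ± 0.05 (edgeR adjusted p = 8.75e-19) and 1.38 ± 0.12 (edgeR adjusted p = 4.95e-16) on the log2 scale. ERF4, an ethylene response factor, was the 1 that rose, with 1113, 1048 and 1188 counts in green and 2379, 2285 and 2155 in non-green libraries (0.95 ± 0.05, edgeR adjusted p = 4.31e-30). The 10 falls ran from -1.38 to -0.31.

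**Figure D4:**
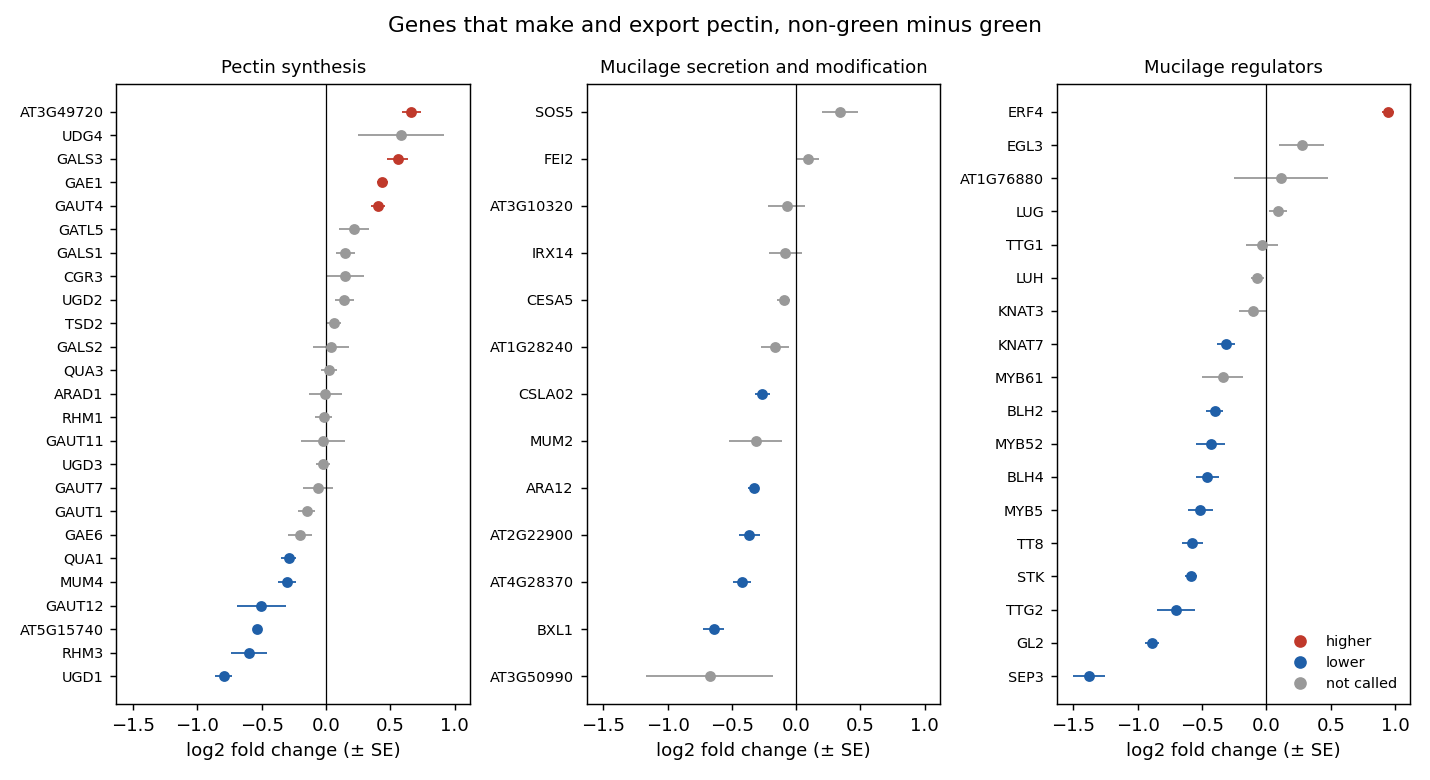
Each point is a listed gene and the x axis its log2 fold change, non-green minus green, with bars of 1 SE (3 libraries per group), in panels for pectin synthesis, mucilage secretion and modification, and mucilage regulators. In the last panel 10 of 18 genes are called lower, and ERF4, at 0.95, is the only one called higher.

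Markers of tissues within or around the seed moved as well, against 26.6% of all genes called, and their part in the pectin results was not tested. Of 11 seed coat markers, 8 were tested, 1 rose (the chalcone synthase gene TT4, 1.27 on the log2 scale) and 3 fell (GL2, MUM4 and TT10, -0.89 to -0.30). Their summed level was 968 to 1013 CPM in green and 889 to 923 in non-green libraries. Within that sum the mean of TT4 rose from 116 to 279 CPM. Against it, TT10 fell from 725 to 532, GL2 from 97.1 to 52.4 and MUM4 from 38.4 to 31.1. Of the seed coat markers, GL2, MUM4 and PER36 also stand in the lists above. Of 10 endosperm markers, 4 were tested and 2 fell, MEA and ALE1 (-1.26 and -1.92). The endosperm sum without EPR1, which makes up nearly all of it, was 7.40 to 11.2 CPM in green and 4.32 to 5.30 in non-green libraries, with MINI3 and EXPA2 at 0. With EPR1 it was 12615 to 14578 in green and 13382 to 14873 in non-green libraries. Of 9 silique wall markers, 5 were tested and 2 rose, FIL and YAB3 (0.22 each), of which DESeq2 called 0 and edgeR 1 when any non-green library was left out, with a sum of 76.3 to 83.2 CPM in green and 79.9 to 96.7 in non-green libraries. The 3 tested silique wall markers that were not called were ALC (-0.61), SHP1 (-0.30) and SHP2 (0.04). IND, not tested, had 0, 3 and 2 counts in green and 0 in each non-green library. FUL, NST1 and NST3 were at 0 in all libraries.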

How the data were processed

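RNA was measured in 3 libraries of green and 3 of non-green seeds. Bowtie 0.12.2 and the build TAIR10 are named in the submitters' processing notes. The counting program, strand use and the treatment of multiply matching reads were not given in the sources used here. The authors deposited counts per gene model, which were used as given. The deposited RPKM values gave the same whole gene length (100% of 29216 values, within 0.05 bases), so they are those counts per length and library total. The deposited table also holds the authors' mean signal, log2 fold change, its error and a test score, and their p-values, under column names that DESeq2 uses, with no settings stated.

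Counts were filtered with filterByExpr, scaled with TMM factors (0.959 to 1.04) and tested with edgeR 4.0.16 (quasi-likelihood, limma 3.58.1, R 4.3.3) with group as the only term, two-sided, with Benjamini-Hochberg adjustment over 17239 genes. The biological coefficient of variation was 5.68%. SE was obtained by dividing the log2 fold change by the root of F. CPM were scaled by these factors, and SD is over 3 libraries. Alternatives were DESeq2 1.42.0, totals alone, no filter, a replicate block and leaving out each library. The scripts were tested on simulated data.

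The genes and lists were chosen with earlier results of these data known. Named in each class were up to 6 rises and 6 falls by size among called genes with an average of at least 1 CPM and no overlap, the 3 highest in RPKM and 4 genes with a published part in seed mucilage (PMEI6, AT1G23200, AT5G49180, AT1G56100, of which 2 fell). From each list came up to 4 called genes by adjusted p and the first of the rarer direction. The planned search of proteins for enzyme signatures was replaced by the InterPro domains in the deposited table. Positions, gene overlaps and promoters are from RefSeq, TAIR10.1, which held all 245 genes.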

Additional observations from a re-analysis of the deposited data

How the results depend on the processing

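The 33 calls were 31 with DESeq2, 33 with totals alone, 37 without the filter and 32 with the replicate block, and 29 to 33 without single libraries. Of the 33, 26 were kept in every one of these settings, and none reversed. Counts per class stayed within 1.5 times of the main ones. Over all genes, 2149 were called lower, and 1364 with totals alone. The silique wall list had 2 calls, but 0 with DESeq2 and 1 to 2 without single libraries. The pollen list had 1 call, but 2 with totals alone and 0 to 2 without single libraries. The cause was not tested. The replicate numbers did not pair the libraries: deviations of same-numbered libraries correlated at 0.0133, 0.00385 and -0.0014, and not every library correlated best with its own number. With the replicate block 32 genes were called, PAE6 being lost (adjusted p = 0.0531). The 161 untested genes had at most 21 counts in any library. Without the filter 4 of them were called.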

Other observations

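Some genes act on pectin without the word in their description. Of 16 whose description contains polygalacturonase or rhamnogalacturonan or its lyases, a set chosen after the data were seen that includes 2 untested polygalacturonase inhibiting proteins, 8 were tested and none was called by edgeR, with 0 at an unadjusted p under 0.05 and 0 called by DESeq2. Of 8 genes outside the description rule that carry an esterase, inhibitor, glycosidase family 28 or pectate lyase domain, 2 of them also in the first set, 4 were tested and 1 was called, PMEPCRA (AT1G11580), described as methylesterase PCR A. It had 109, 112 and 93 counts in green and 219, 200 and 235 in non-green libraries (log2 fold change 0.98 ± 0.13 SE, edgeR adjusted p = 4.17e-09). Its groups did not overlap. Also among the 4 tested were C/VIF1 (AT1G47960) and C/VIF2 (AT5G64620), which were not called. They are described as inhibitors of fructosidase, so this set does not hold pectin genes alone. ADPG2 (AT2G41850), a polygalacturonase of organ shedding, had 9, 11 and 11 counts in green and 1, 2 and 7 in non-green libraries and was not tested. AT1G09880 had 5, 7 and 3 counts in green and 0 in each non-green library and was not tested either.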
